A study of Mus musculus with 24 samples.

Results

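Along the liver lobule, hepatocytes near the portal tract and hepatocytes near the central vein express different sets of enzymes, and Wnt signaling is a main source of the pericentral pattern. Endothelial cells of the central vein release Wnt2 and other Wnt ligands together with the R-spondin Rspo3, and the hepatocytes next to them answer through Frizzled and Lgr receptors, stabilise beta-catenin (Ctnnb1) and transcribe targets such as Axin2, Tbx3 and the ammonia-handling genes Glul and Rhbg. The ubiquitin ligases Rnf43 and Znrf3 remove Frizzled from the membrane and so dampen the signal, and R-spondins held by Lgr5 take these ligases out of action. The 10 genes described here (Glul, Axin2, Lgr5, Tbx3, Rnf43, Znrf3, Rhbg, Ctnnb1, Wnt2 and Rspo3) were chosen by name, as every probe whose gene name in the scanner files was exactly 1 of these symbols. They had 21 probes of 56605 on the array and were 10 of its 37074 gene names.

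RNA was measured with 1 one-colour Agilent array per mouse in the whole liver of 24 C57Bl6J males of the third generation of 2 lineages, killed while fasting. The reference group (STD_Cont, 9 arrays) came from the control fatty acid lineage, which had received high-oleic sunflower oil, and was fed a low-fat diet. The HFoleic group (HFD_Cont, 8 arrays) came from the same lineage and the HFepa group (HFD_O3, 7 arrays) from the omega 3 lineage, given a fish oil with eicosapentaenoic acid (EPA) as its main omega 3 fatty acid, and both were fed the high-fat, high-sucrose diet. The series held no mice of the omega 3 lineage on the low-fat diet, so diet, lineage and oil cannot be told apart in HFepa against reference. Each oil went with 1 lineage, so lineage and oil cannot be told apart in HFepa against HFoleic either. The age of the mice is not given in the sources used here. Values are log2 of the median spot signal after quantile normalisation, which has no unit and is set only against the same probe on other arrays, and a gene was called when its limma adjusted p (Benjamini-Hochberg over 30003 tested probes) was below 0.05.

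Of the 21 probes, 19 lay well above background on enough arrays to be tested, at least 1 for each of the 10 genes. The untested ones were a second probe of Axin2, well above background on 5 reference, 1 HFoleic and 2 HFepa arrays, and a second probe of Rspo3, on 0, 0 and 1. All 10 probes that stand for the genes, the brightest tested probe of each, are placed by the files on the chromosome where RefSeq (GRCm38.p6) has the gene. Several genes were read by more than 1 probe, and the agreement of these probes matters for Glul, Lgr5 and Tbx3. The further probes behind those readings are 60 bases long, are placed on mm9 by the scanner files, and are shown because they lie at other positions than the brightest probe of the same gene name. The scanner files list a RefSeq transcript for those of Glul and Tbx3 and none for Lgr5 probe 2. Written 5′ to 3′ in lower case, with no letters marked, they are:
Glul probe 2 (chr1:155755109-155755168, plus strand): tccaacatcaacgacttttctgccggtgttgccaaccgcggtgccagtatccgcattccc
Glul probe 3 (chr1:155751765-155751824, plus strand): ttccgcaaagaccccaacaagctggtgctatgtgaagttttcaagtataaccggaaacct
Lgr5 probe 2 (chr10:114899782-114899841, minus strand): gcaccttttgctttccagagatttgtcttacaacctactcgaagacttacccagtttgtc
Tbx3 probe 2 (chr5:120132985-120133044, plus strand): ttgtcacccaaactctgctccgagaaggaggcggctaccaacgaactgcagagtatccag

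The labelled tissue was borne out by its markers: 6 of the 7 hepatocyte markers were on the array by name, and their probes lay between the 98.2 and the 99.99 percentile of the tested signals. 1 array stood apart, reference replicate 5. Its median correlation with the other reference arrays was 0.976, against 0.987 to 0.992 for the others, and 4.76% of its probes lay more than 1 log2 unit from the mean of the rest, against 0.36% to 1.33%. On that array the bile duct markers (4 of 6 tested, Epcam and Cftr not) summed to a signal of 10786 against a group median of 1954, and the 11 stellate cell and fibroblast markers to 62382 against 27233. The periportal genes were 0.62 higher and the 10 Wnt zonation genes 0.44 lower on average than on the other reference arrays, and 4 of the 10 (Glul, Lgr5, Tbx3 and Wnt2) were at their lowest there. Of all tested genes, 25.7% were at their lowest of the reference group on this array and 20.2% at their highest. The differences of the 10 genes and the summaries of the lists are therefore given with all arrays and again without it, a choice made after the array had been seen to stand apart. Its part in each result beyond those values was not tested.

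**Figure D1:**
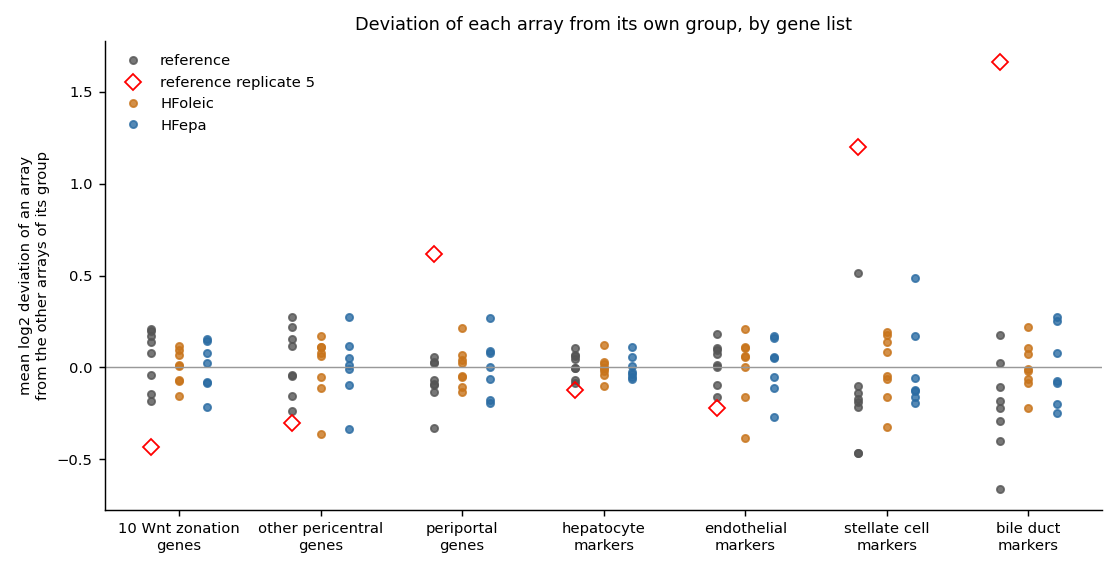
Mean log2 deviation of each array from the other arrays of its own group (y axis) for the 10 genes and for lists of zonated genes and cell type markers (x axis). Each point is 1 array, coloured by group, and the open red diamond is reference replicate 5, which is lowest for the 10 genes (-0.44) and highest for periportal (0.62), stellate cell (1.20) and bile duct (1.66) lists.

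In the HFoleic group 1 of the 10 genes was called compared to the reference group, the R-spondin receptor Lgr5, which was higher. The background was 8.07% of 20192 genes called, 4.52% higher and 3.55% lower (7.23% of probes), so 1 of 10 is close to the share over the whole array. Glul, the glutamine synthetase of the last hepatocytes before the central vein, missed the threshold (adjusted p = 0.0545). At an unadjusted p below 0.05 there were 3 of the 10 genes (Lgr5, Glul and Rnf43), beside 6332 of all 30003 tested probes. The median difference over the 10 genes was 0.07, beside -0.0062 over all genes, and 7 of the 10 were higher in HFoleic. In the HFepa group none of the 10 was called against the reference (0.391% of genes and 0.393% of probes were). Of the 10, 1 had an unadjusted p below 0.05, beside 4040 of 30003 probes. The median difference was 0.15, beside 0.00082 over all genes, with 7 of 10 higher. Without reference replicate 5 the median in HFepa fell to 0.086 (8 of 10 higher, 0 called, 1 at an unadjusted p below 0.05), beside -0.00064 over all genes, and in HFoleic it was 0.063 (6 of 10 higher, 1 called, 4 at an unadjusted p below 0.05). Between HFepa and HFoleic 0% of genes and of probes were called by limma (2910 probes had an unadjusted p below 0.05, and the methods' t-test called 0), and among the 10 genes none had an unadjusted p below 0.05, against 2 (Lgr5 and Tbx3) without reference replicate 5, again with 0 called. The comparisons against the reference share its 9 arrays, so their values stand side by side and are not counted as separate support.

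**Figure D2:**
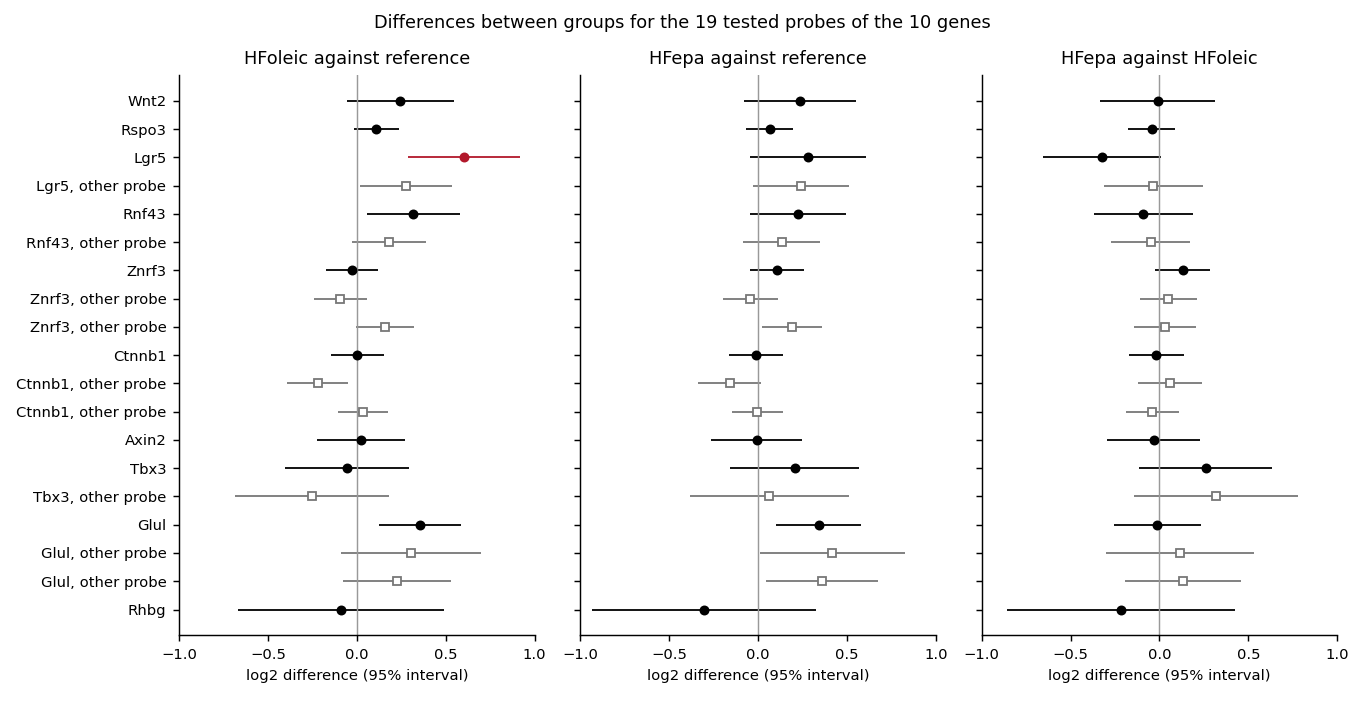
Log2 difference between groups (x axis) with its 95% interval for the 19 tested probes (y axis), in 3 comparisons. Filled circles are the probes that stand for a gene and open squares are its other probes. Red marks the 1 call, Lgr5 at 0.60 in HFoleic against reference.

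Of the signals sent by the endothelium, Wnt2 was measured by 1 probe (chr6:17939284-17939343, minus strand). Its log2 signal ran from 8.33 over a median of 9.14 to 9.42 in the reference group, from 8.94 over 9.17 to 9.95 in HFoleic, and from 8.92 over 9.34 to 9.62 in HFepa. The groups overlapped, and 3 arrays of each high-fat group lay above every reference array. The differences from the reference were 0.24 ± 0.15 (SE; adjusted p = 0.360) in HFoleic and 0.24 ± 0.15 (adjusted p = 0.541) in HFepa, and without reference replicate 5, the lowest reference array, 0.15 in each. By slide, the HFoleic difference was 0.60, 0.06 and 0.07, and the slide with the 0.60 also held reference replicate 5.

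Rspo3, the R-spondin of the central vein, had the narrowest spread of the pair of secreted signals. Its probe (chr10:29172930-29172989, minus strand) gave 8.86 to 9.24 with a median of 8.99 in the reference group, 8.96 to 9.22 with a median of 9.17 in HFoleic, and 8.93 to 9.18 with a median of 9.07 in HFepa. All HFoleic and HFepa arrays lay inside the range of the reference arrays. The differences were 0.11 ± 0.06 (adjusted p = 0.319) and 0.06 ± 0.06 (adjusted p = 0.727), with 95% intervals from -0.02 to 0.24 and from -0.07 to 0.20, and without reference replicate 5 they were 0.11 and 0.06. In whole liver, fewer cells of a type and less RNA per cell cannot be told apart, which holds for these endothelial messages and for every gene below.

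Lgr5, the receptor that binds R-spondins, had the largest difference of the 10 genes in HFoleic. On its brightest probe (chr10:114887403-114887462, minus strand) the reference arrays ran from 7.75 over a median of 8.23 to 8.83, the HFoleic arrays from 8.61 over 8.83 to 9.28, and the HFepa arrays from 7.97 over 8.59 to 8.87. All 8 HFoleic arrays lay above the reference mean and median and 4 above every reference array, although the groups still overlapped because 3 reference arrays reached between 8.73 and 8.83. The difference of 0.60 ± 0.15 (1.52-fold, 95% interval 0.29 to 0.92) had an adjusted p of 0.0154 by limma. It kept the call when each of the 24 arrays was left out in turn (0.54 to 0.67, largest adjusted p 0.0358), and without reference replicate 5 it was 0.54 with an adjusted p of 0.0278.

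HFoleic was higher for Lgr5 on each slide (0.83, 0.37 and 0.55) and in each slide row (0.72 and 0.46). The second probe, shown above, gave a smaller difference of 0.28 ± 0.13 (adjusted p = 0.206), with all 8 HFoleic arrays above the reference mean and 1 above every reference array, so the call rests on the brightest probe. The scanner files list no RefSeq transcript for this second probe. With the scanner's processed signal this probe gave 0.56 ± 0.21, beside 0.66 ± 0.18 on the brightest. The size of its difference thus depended on the processing. In HFepa the brightest probe was 0.28 ± 0.16 higher than in the reference group (adjusted p = 0.463, and 0.21 without reference replicate 5) and the second 0.24 ± 0.13 (adjusted p = 0.443). HFepa lay 0.32 ± 0.16 below HFoleic on the brightest probe, with a 95% interval from -0.66 to 0.01 and an adjusted p of 0.533, and 0.03 below on the second, so a difference between the high-fat groups was not shown for Lgr5.

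Rnf43, the ligase that clears Frizzled from the membrane and is itself a Wnt target, had a wide reference group. The probe (chr11:87548944-87549003, plus strand) gave 9.75 to 10.93 with a median of 10.44 in the reference group, 10.48 to 10.83 with a median of 10.67 in HFoleic, and 10.34 to 10.73 with a median of 10.65 in HFepa. The SD was 0.41 in the reference group against 0.11 and 0.15 in the others, and no HFoleic or HFepa array passed the highest reference array. HFoleic was 0.32 ± 0.13 higher than the reference (adjusted p = 0.135), a difference that was called in 1 of 24 leave-one-out fits, without reference replicate 8, the highest array (0.39, adjusted p = 0.0341), and was smallest without reference replicate 3 (0.24, adjusted p = 0.242). The HFepa difference was 0.23 ± 0.13 (adjusted p = 0.479). Without reference replicate 5, at 9.79 the second lowest reference array, the differences were 0.25 (adjusted p = 0.220) and 0.16 (adjusted p = 0.648). A second, dim probe of Rnf43 gave 0.18 and 0.13. It was well above background on 4 of 9 reference, 6 of 8 HFoleic and 3 of 7 HFepa arrays. It thus passed the filter only through HFoleic, the group where it was highest, so its values are not counted as support.

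Znrf3, the paralogue with the same task, gave small differences. Its brightest probe, 60 bases long, is placed by the scanner files at chr11:5176332-5176337 (minus strand), a span shorter than the probe. This probe was 0.03 lower in HFoleic (95% interval -0.17 to 0.12, adjusted p = 0.882) and 0.10 higher in HFepa (-0.05 to 0.26, adjusted p = 0.586). The reference arrays spanned only 7.76 to 7.91, HFoleic 7.51 to 8.0005 and HFepa 7.64 to 8.25, and 5 of the 7 HFepa arrays lay above every reference array. The other probes did not share a direction: against the reference, one was lower in both high-fat groups (-0.09 and -0.04) and one higher (0.16 and 0.19). The brightest probe differed by -0.02 and 0.11 without reference replicate 5.

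Ctnnb1, which encodes beta-catenin and is regulated mainly at the level of the protein, gave differences near 0 on its brightest probe (chr9:120869274-120869333, plus strand). Reference arrays lay between 10.90 and 11.52 with a median of 10.99, HFoleic between 10.95 and 11.20 with a median of 11.07, and HFepa between 10.87 and 11.24 with a median of 11.05. The differences from the reference were 0.0030 (95% interval -0.14 to 0.15) in HFoleic and -0.01 (-0.17 to 0.14) in HFepa, and another probe gave 0.04 and -0.0042. The brightest probe differed by 0.02 and 0.0015 without reference replicate 5. A second probe, for which the files list no RefSeq transcript, was 0.22 ± 0.08 lower in HFoleic (adjusted p = 0.107), with all 8 arrays below the reference median and 3 below every reference array, and it was called in 1 leave-one-out fit, without reference replicate 8.

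Axin2, a negative feedback target of the pathway that is widely read as a measure of Wnt activity, had group means of 7.21 in the reference group, 7.23 in HFoleic and 7.20 in HFepa. Its tested probe (chr11:108811980-108812039, plus strand) ran from 6.85 over a median of 7.22 to 7.61 in the reference group, from 6.98 over 7.16 to 7.66 in HFoleic, and from 6.73 over 7.13 to 7.70 in HFepa. The differences were 0.02 in HFoleic (95% interval -0.22 to 0.27, adjusted p = 0.938) and -0.01 in HFepa (-0.26 to 0.25, adjusted p = 0.990). The sign of both differences turned when single arrays were left out, and without reference replicate 5 they were -0.01 and -0.05.

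Tbx3, a transcription factor that beta-catenin induces in pericentral hepatocytes, moved the most of the 10 standing probes in HFoleic when reference replicate 5 was left out. On that array its log2 signal was 11.19, where the other 8 reference arrays ran from 12.33 to 12.95. HFoleic spanned 11.87 to 12.69 with a median of 12.49, below the reference median of 12.70 on all 8 arrays, and HFepa 12.49 to 12.99 with a median of 12.72. With all arrays, HFoleic differed from the reference by -0.05 ± 0.17 (adjusted p = 0.901) and HFepa by 0.20 ± 0.18 (adjusted p = 0.676).

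Without reference replicate 5 the Tbx3 differences became -0.22 ± 0.10 (adjusted p = 0.228) in HFoleic and 0.04 ± 0.11 (adjusted p = 0.925) in HFepa. The second probe, shown above, moved in the same way, from -0.25 to -0.43 in HFoleic (adjusted p = 0.541 and 0.101) and from 0.06 to -0.11 in HFepa. HFepa was 0.26 ± 0.18 above HFoleic (adjusted p = 0.665), with 4 of 7 HFepa arrays above every HFoleic array, and 0.32 above on the second probe. By slide that difference was 0.56, 0.14 and 0.05, and it was not called with or without the array.

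Glul, whose product makes glutamine from ammonia in the ring of hepatocytes around the central vein, was higher in both high-fat groups on each of its 3 probes without passing the threshold. On the brightest (chr1:155756765-155756824, plus strand) the reference arrays ran from 13.76 over a median of 14.62 to 14.83, HFoleic from 14.78 over 14.87 to 15.11, and HFepa from 14.69 over 14.80 to 15.38. The groups overlapped, with 5 of 8 HFoleic and 2 of 7 HFepa arrays above every reference array and all 15 above the reference median. HFoleic was 0.35 ± 0.11 higher (1.28-fold, 95% interval 0.12 to 0.58, adjusted p = 0.0545) and HFepa 0.34 ± 0.12 (1.27-fold, 0.10 to 0.58, adjusted p = 0.173). HFepa and HFoleic differed by -0.01, with a 95% interval from -0.26 to 0.23.

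On Glul probes 2 and 3 the differences were 0.23 and 0.30 in HFoleic (adjusted p = 0.408 and 0.387) and 0.36 and 0.42 in HFepa (adjusted p = 0.294 and 0.355). Reference replicate 5 was far below its group on all 3 probes, at 13.76, 11.36 and 8.16, where the next lowest arrays read 14.43, 12.70 and 9.57. Without it the HFoleic differences were 0.26 on the brightest probe (adjusted p = 0.0538), 0.06 and 0.10, and the HFepa differences 0.24 (adjusted p = 0.209), 0.20 and 0.22. The brightest probe was called in HFoleic when HFepa replicate 4 (adjusted p = 0.0300), reference replicate 2 (0.0359) or reference replicate 8 (0.0340) was left out. The slides gave 0.45, 0.38 and 0.26 for HFoleic and 0.38, 0.24 and 0.43 for HFepa.

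Rhbg, an ammonium transporter of the same pericentral cells, had the widest spread. The probe (chr3:88047265-88047324, minus strand) ran from 8.52 over a median of 9.42 to 10.15 in the reference group, from 7.98 over 9.42 to 9.71 in HFoleic, and from 8.16 over 9.02 to 10.23 in HFepa, where the spot of replicate 3 was flagged as an outlier and dropped, leaving 6 arrays. The groups overlapped over nearly their whole range. The differences from the reference were -0.09 ± 0.28 (95% interval -0.67 to 0.49) and -0.31 ± 0.30 (-0.93 to 0.32), with adjusted p of 0.902 and 0.733, and without reference replicate 5 they were -0.06 and -0.28. Single arrays moved them further: the HFepa difference was -0.12 without HFepa replicate 1 and -0.54 without HFepa replicate 4, and the HFoleic difference was 0.10 without HFoleic replicate 3. Within the slide rows the HFepa difference was -0.87 and -0.05.

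**Figure D3:**
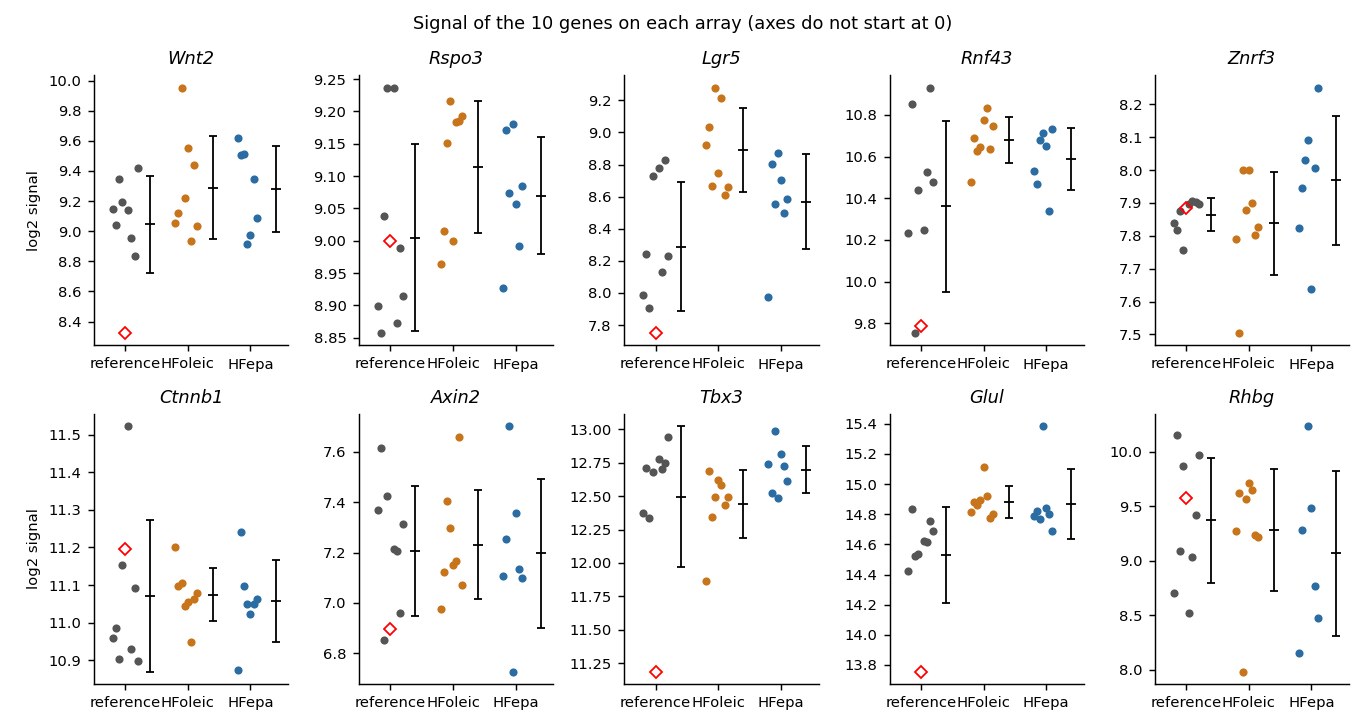
Log2 signal (y axis, not from 0) of the brightest tested probe of each gene on every array, by group (x axis). Points are arrays, the black bars show mean and SD, and the open red diamond is reference replicate 5. For Lgr5 all 8 HFoleic points lie above the reference mean. For Glul, Lgr5, Tbx3 and Wnt2 the diamond lies below every other point of its group.

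Over the 24 arrays the 10 genes did not move as a block. Among their 45 pairs the median Pearson correlation was 0.11 (range -0.44 to 0.72) and 6 pairs were above 0.5, among them Glul with Rnf43 (0.72), Glul with Lgr5 (0.64) and Lgr5 with Rspo3 (0.61). Without reference replicate 5 the median was 0.03 with 5 pairs above 0.5, and Glul with Tbx3 went from 0.56 to -0.04 while Glul with Rnf43 was 0.57, Glul with Lgr5 0.53 and Lgr5 with Rspo3 0.63. After each group's mean was taken out, these 3 pairs correlated at 0.63, 0.49 and 0.52 over all arrays and at 0.46, 0.34 and 0.55 without reference replicate 5. These arrays share slides and normalisation, so the correlations are a description.

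The genes most like Lgr5 among 19046 with complete values included Sh3glb2 (0.83), Rgn (0.82), Opa3 (0.81) and Aldh1a1 (0.81), which stayed between 0.76 and 0.84 without reference replicate 5. Those most like Glul over all arrays were Slco1b2 (0.87), Dio1 (0.87), Cd59b (0.87), Ugt3a1 (0.86) and Dcun1d4 (0.84). Without reference replicate 5 they were between 0.61 and 0.72 and ranked from 37 (Cd59b) to 364 (Dcun1d4), so this list depended on that array. For Axin2 the correlations were lower, with a transcript named only by its position, Qtrtd1, AK045785, Kdm6b and Ubxn1 at 0.67 to 0.70. Ranks of the other genes of the 10 in the list of Axin2 ran from 519 (Wnt2) to 14341 (Znrf3), with Glul at 9576 and Lgr5 at 9058. Without reference replicate 5 they ran from 1190 (Wnt2) to 17343 (Glul), with Lgr5 at 12696. In the list of Glul they ran from 156 (Rnf43) to 12862 (Ctnnb1), and without that array from 524 (Rnf43) to 15203 (Axin2). For Lgr5 they ran from 365 (Glul, 1018 without that array) to 10322 (Znrf3). Without that array the Lgr5 ranks ran from 314 (Rspo3) to 13642 (Wnt2). Rhbg, with 1 spot dropped, was not ranked.

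The wider Wnt pathway was read from 5 lists, with 56 of 84 genes tested, of which 10 were called in HFoleic against reference (4 higher, 6 lower). That is 17.9% of the tested list genes, where 8.07% of all genes were called, 4.52% higher and 3.55% lower. The other comparisons called 0 (smallest adjusted p 0.0630 and 0.192), and without reference replicate 5 the HFoleic count was 9, with Nkd2 lost (adjusted p = 0.0547). Among the 8 tested inhibitors 3 were higher and 5 lower, with a median of -0.066 (-0.012 without reference replicate 5). Of these 2 were called, both higher and both Dishevelled antagonists. Nkd1, a Wnt target itself, was 0.47 higher (adjusted p = 0.00525) and Nkd2 0.43 higher (adjusted p = 0.0352). The call of Nkd2 was lost in 8 of 24 leave-one-out fits and that of Nkd1 in 0. Among nuclear partners of beta-catenin, the Groucho corepressor Tle3 was 0.97 higher (adjusted p = 0.000732, 3 of 4 probes called), from 8.26 ± 0.39 (SD) in the reference group to 9.22 ± 0.11 in HFoleic, and Tcf7l1 0.32 lower (adjusted p = 0.0217, lost without HFoleic replicate 8 at 0.0536).

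Of the ligands, Wnt5a was 0.43 lower (adjusted p = 0.0251, 1 of 11 tested), and of the receptors Ryk and the co-receptor Lrp5 were 0.26 and 0.22 lower (adjusted p = 0.0264 and 0.0437, 2 of 11). The calls of Wnt5a, Ryk and Lrp5 were lost in 2, 7 and 14 leave-one-out fits. Ryk and Lrp5 were each called on 1 of 2 probes. In the destruction complex, which marks beta-catenin for degradation, Csnk1a1 was 0.32 lower (adjusted p = 0.00463, 1 of 5 probes called), Gsk3a 0.20 lower (adjusted p = 0.0242, lost in 4 leave-one-out fits) and Apc2 0.24 higher (adjusted p = 0.00352). The called Apc2 probe lay at the 98.3 percentile of signal and the other Apc2 probe at the 28.1 percentile without a call (0.08). Gsk3a was called on 1 of 2 probes. The medians of the 5 lists ran from -0.099 in the destruction complex to -0.0044 in the nuclear partners. These became -0.048 and 0.028 without reference replicate 5, and the 5 medians ran from -0.065 to 0.028.

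Hepatocyte genes of both zones beyond the 10 were compared as well. Of 22 other pericentral genes 3 were called higher and 3 called lower in HFoleic against reference, with a median of 0.14. Of 22 periportal genes 2 were called higher and 10 called lower, with a median of -0.30. Of all genes, 4.52% were called higher and 3.55% lower. The pericentral calls were led by Cyp7a1, the rate-limiting enzyme of bile acid synthesis (-1.61 ± 0.37, adjusted p = 0.00821), and the transporters Slc22a3 (-0.79 ± 0.20, adjusted p = 0.0148), Slc1a4 (-0.78 ± 0.13, adjusted p = 0.00129) and Slc13a3 (0.71 ± 0.21, adjusted p = 0.0396, lost in 11 leave-one-out fits). Lect2 and Rgn, chosen after their values were seen, were the other calls, at 0.66 and 0.49. Cyp7a1 was called on 1 of 2 probes, and the other differed by -0.58 (adjusted p = 0.125).

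The periportal calls were led by the urea cycle enzymes Asl (-1.10 ± 0.17, adjusted p = 0.000683) and Cps1 (-0.89 ± 0.15, adjusted p = 0.00166), the serine dehydratase Sds (-0.96 ± 0.21, adjusted p = 0.00633) and the phospholyase Etnppl (-0.84 ± 0.23, adjusted p = 0.0291, lost in 2 leave-one-out fits). The other 6 lower genes lay between -0.74 and -0.48 and include the gluconeogenic Pck1 and G6pc, also chosen after their values were seen. The 2 genes called higher were Ctsc (0.53) and Pigr (0.23). The standing probe of Pigr is placed on chromosome 19 by the files while RefSeq has the gene on chromosome 1. Sds was called on 1 of 2 probes, Etnppl on 2 of 3 and Ctsc on 1 of 3. Without reference replicate 5, on which periportal genes were high, the counts were again 3 and 3 of 22 and 2 and 10 of 22, with medians of 0.09 and -0.20.

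In HFepa against reference no gene of either zonation list was called (smallest adjusted p 0.0543, for G6pc at -0.53), and the medians were 0.02 for pericentral and -0.27 for periportal genes (-0.0053 and -0.22 without reference replicate 5). At an unadjusted p below 0.05 there were 5 and 14 of 22 genes, beside 4040 of all 30003 tested probes. Between HFepa and HFoleic again none was called, with Cyp7a1 at 1.24 (adjusted p = 0.280) and Pck1 at 0.44 (adjusted p = 0.201). In that comparison 4 of each list had an unadjusted p below 0.05, beside 2910 of all 30003 tested probes. A difference between the high-fat groups was thus not shown for these genes.

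**Figure D4:**
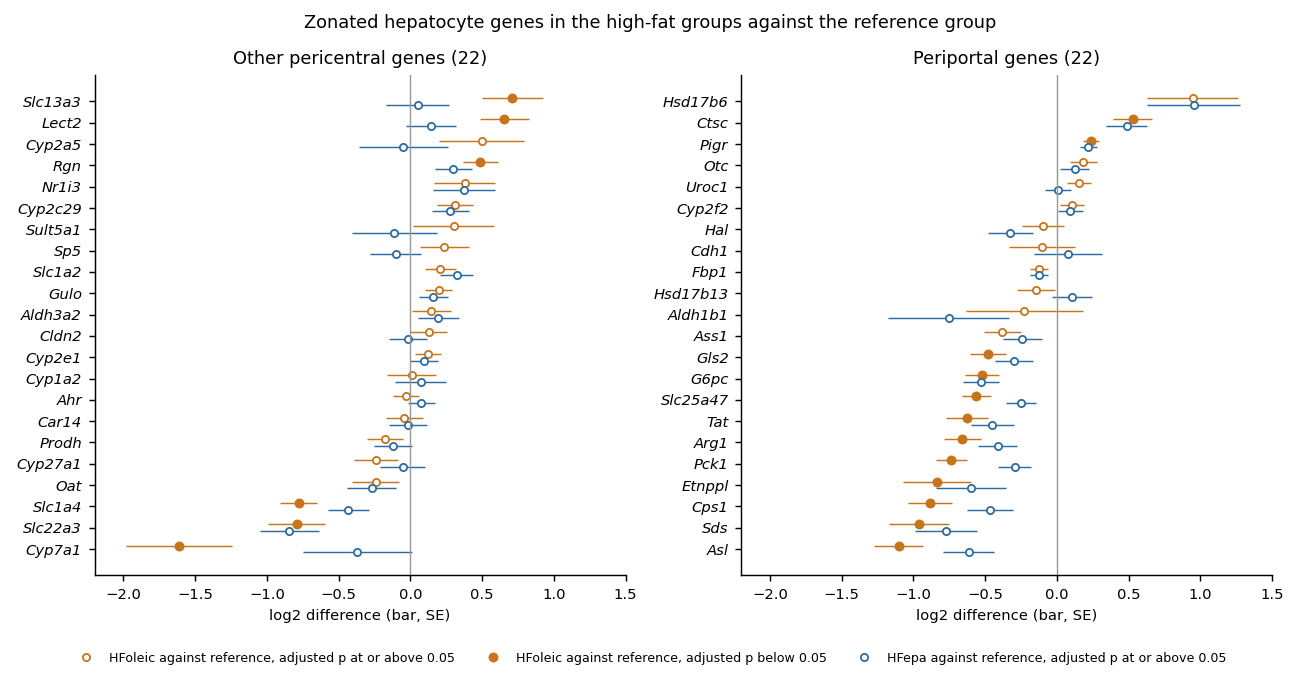
Log2 difference from the reference group (x axis, bars show SE) for 22 other pericentral and 22 periportal genes (y axis, ordered by HFoleic). Filled orange circles passed the threshold in HFoleic and no gene passed in HFepa (blue). In HFoleic 10 periportal genes were called lower, from -1.10 for Asl, while pericentral calls were split 3 and 3.

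Markers of the cells that send or could dilute these signals were compared as well. None of 15 endothelial markers was called in HFoleic (7 higher, 8 lower, median -0.00015) or in HFepa (14 higher, 1 lower, median 0.16), with Clec4g, a marker of sinusoidal cells, at 0.27 (adjusted p = 0.0810) and 0.33 (adjusted p = 0.117). Their summed signal ran from 22897 to 29817 in the reference group, from 22655 to 32517 in HFoleic and from 26666 to 34157 in HFepa. Of 11 stellate cell markers in HFoleic 6 were higher and 5 lower (median 0.0045), and Lrat was called, 0.56 higher (adjusted p = 0.00150). Of 4 bile duct markers 1 was higher and 3 lower (median -0.23), and Sox9 was called, 0.65 lower (adjusted p = 0.0279, lost in 2 leave-one-out fits). The other tested Sox9 probe was 0.19 lower without a call (adjusted p = 0.415). Lrat and Sox9 were also called without reference replicate 5 (0.57 and -0.48), where the endothelial medians were -0.02 in HFoleic and 0.13 in HFepa. The stellate cell and bile duct medians in HFoleic were then 0.13 and -0.095. All 8 Kupffer cell markers were higher in HFepa than in the reference group (median 0.25, and 0.27 without that array), with none called. No hepatocyte (6), Kupffer cell (8), blood (7) or neighbouring-tissue (4) marker was called in any comparison. How far cell type shares entered the differences of the 10 genes was not tested.

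In the RefSeq promoter table (GRCm38.p6, 250 bases before to 50 after a start), Glul, Wnt2, Ctnnb1, Rnf43 and Axin2 had 7 windows. The core letters of the TCF/LEF motif, CTTTGAT or CTTTGAA on either strand, were in 0 of the 7 and in 8.65% of all 32851 windows. Lgr5, Tbx3, Znrf3, Rhbg and Rspo3 were not looked up beyond that table.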

How the data were processed

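The authors deposited, for each of the 24 arrays, the scanner output (Agilent Feature Extraction 10.10.1.1, per the labels) with median, mean and processed signal intensity of each spot, and a table of log2 values. The study methods give the median signal, log2, quantile normalisation and limma. The deposited log2 table matched the scanner signals (lowest correlation over arrays 0.99968), has 32176 probes and served as an alternative.

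From the median intensity, spots flagged as outliers were dropped, spots of a probe averaged, and 30003 of 56605 probes retained, those that 75% or more of the arrays in any group read well above background. Values were log2 transformed, quantile normalised and fitted with limma 3.58.1 (R 4.3.3) over the 3 groups and all 24 arrays. Tests were two-sided, with Benjamini-Hochberg adjustment within a comparison, and were tested on simulated data. Arrays limit the precision by their number. Mice were separate animals, and the replicate numbers were taken as names only.

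Groups came from the labels. The 10 genes and all lists were chosen with earlier results of these data known, so none is independent support. All 10 genes are described, each read from its brightest tested probe. From each list, the called genes with the largest differences (at most 4) are named, otherwise those with the smallest p, and for likeness the 5 most correlated genes, of which 1 is not reported here. Arrays lay on 3 slides in 2 rows, each with all groups.

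Alternatives were the deposited table, processed or median signal scaled at the 75th percentile, normexp (offset 50), both extremes of the dim-probe filter, the methods' t-test, 2 groups only, slide, row and replicate block, other probes, and each array left out. Columns of per-sample values left out numbered 0.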

Additional observations from a re-analysis of the deposited data

Results flagged for a closer look

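Within the groups, 9 values of single arrays lay far from the rest of their group, where the gap to the nearest array is a large share of the group's range. There were 30 groups looked at (10 genes in 3 groups), and the rule is meant to mark about 1 in 20 by chance. These groups share arrays, and the share marked over all genes is not given here, so the 9 are not read as an excess. Reference replicate 5 was low for Glul (13.76, nearest 14.43, gap 0.620 of the range) and Tbx3 (11.19, nearest 12.33, 0.652). Glul was also high in HFoleic replicate 5 (15.11, nearest 14.92, 0.560) and in HFepa replicate 4 (15.38, nearest 14.84, 0.780). Lgr5 was low in HFepa replicate 1 (7.97, nearest 8.50, 0.583), Tbx3 in HFoleic replicate 1 (11.87, nearest 12.34, 0.579), Znrf3 in HFoleic replicate 2 (7.51, nearest 7.79, 0.573) and Rhbg in HFoleic replicate 3 (7.98, nearest 9.22, 0.716). Ctnnb1 was high in reference replicate 6 (11.52, nearest 11.20, 0.524). The cause was not tested for any of them.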

How the results depend on the processing

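Over 357 values of single genes under other settings, 340 kept their direction and their side of the threshold. Lgr5 in HFoleic against reference stayed called in every alternative fit of its brightest probe (0.55 to 0.66, adjusted p 0.0135 to 0.0463). The call was lost on the other probe in the main fit (0.28), which gave 0.56 with the processed signal. Glul in HFoleic passed with probes well above background on all arrays (0.35, adjusted p 0.0472) and with normexp (0.36, adjusted p 0.04998), which made the count of the 10 genes called 2 in each, with adjusted p up to 0.146 in the other fits of this probe and 0.408 and 0.387 on its other probes. Small differences changed sign. In HFoleic against reference these were Ctnnb1 (normexp -0.011, other probe -0.22, slide row block -0.0036, replicate block -0.019), Tbx3 (replicate block 0.0019) and Znrf3 (other probe 0.16). In HFepa against reference they were Axin2 (slide row block 0.0086), Ctnnb1 (median signal at the 75th percentile 0.00057) and Znrf3 (other probe -0.044). In HFepa against HFoleic they were Ctnnb1 (other probe 0.060), Glul (other probes 0.13 and 0.12) and Wnt2 (normexp 0.0085, slide row block 0.010). The cause was not tested.

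The probes called in HFepa against reference (118) fell to 60 with the processed signal, 13 with 2 groups in the fit, and 0 without a filter (4845 at an unadjusted p below 0.05) or by the methods' t-test (3472). HFepa against HFoleic had 2 with the strict filter. In the zonation and Wnt lists 1 gene, G6pc, was called in HFepa against reference with the strict filter (-0.53, adjusted p 0.0478) and with the replicate block (-0.56, adjusted p 0.0331). The labels do not say whether the replicate numbers pair the mice. Of 22 same-number pairs 5 correlate above 0.1 (median 0.0018, beside -0.015 for different-number pairs), which cannot settle it. With the replicate block 1747, 104 and 0 probes were called, against 2170, 118 and 0.

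Leaving out 1 array at a time gave 1602 to 3097, 0 to 499 and 0 to 15 probes called in HFoleic against reference, HFepa against reference and HFepa against HFoleic, and 1 to 3, 0 and 0 of the 10 genes. The sign turned for Axin2 (-0.036 to 0.076, -0.092 to 0.070 and -0.12 to 0.045), Ctnnb1 (-0.019 to 0.059, -0.045 to 0.042 and -0.048 to 0.013), Glul (-0.098 to 0.020) and Wnt2 (-0.066 to 0.085) between HFepa and HFoleic, and Rhbg (-0.20 to 0.097), Tbx3 (-0.22 to 0.027) and Znrf3 (-0.050 to 0.021) between HFoleic and reference.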
